A study of Rattus norvegicus with 6 samples.

Results

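Genes of the cardiac Z-disc and of stretch sensing were followed in neonatal rat cardiomyocytes given the compound 3Cl-HBA or its solvent. The genes were chosen by name, and 9 of the 10 names were found, each in 1 row, among the 22250 genes of the deposited table: Actn2, Nebl, Ldb3, Myoz2, Des, Cryab, Xirp1, Csrp3 and Ankrd1. Tcap was not analysed here. The study measured RNA from wild-type heart muscle cells that were freed by collagenase from the hearts of 1-day-old Sprague-Dawley rats and cultured with fetal bovine serum. The treated group was given 3Cl-HBA at 40 µM for 48 h (3 libraries), and the control group was given DMSO, with the same time of 48 h in the labels (3 libraries). The series title names activation of the lactate receptor HCAR1 as the subject, so the comparison asks which transcripts differ after 3Cl-HBA. The labels describe no step that removes other heart cells, and do not say whether each library had its own culture. The p-values therefore measure only the spread between these libraries, which may be technical.

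The Z-disc is the plate at each end of a sarcomere, where thin filaments of neighbouring sarcomeres are tied together by alpha-actinin. It also holds adaptor proteins, signalling proteins and links to desmin filaments, and it is under load at each contraction. Several of its proteins, among them the muscle LIM protein and ankyrin repeat proteins, are known to move between sarcomere and nucleus or to rise in abundance when heart muscle is stretched or overloaded.

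Libraries held 13240800 to 17202191 reads assigned to genes, and each 3Cl-HBA library was deeper than each DMSO library. No library repeated another, since counts of the 13903 tested genes differed between any 2 by a chi-square of 2.78 to 5.14 times its degrees of freedom. Levels are given as reads per 1000000 (CPM) on TMM-scaled totals, and comparisons between genes as FPKM, which divides by gene length. The 9 genes together took 0.793%, 0.795% and 0.791% of the reads in 3Cl-HBA replicates 1 to 3, and 0.783%, 0.790% and 0.808% in DMSO replicates 1 to 3. The treated libraries lay within the range of the DMSO libraries, and Ankrd1 alone supplied 39.5% to 42.0% of these reads in each library.

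The 9 transcripts were among the more abundant ones of the culture, though unevenly. Of the 9 genes, 7 carry the Z disc term in the annotation deposited with the table, and Xirp1 and Ankrd1 do not. Per gene length, Ankrd1 was the highest, with 1839 ± 17.3 FPKM after 3Cl-HBA and 1828 ± 40.6 FPKM in DMSO (SD, n = 3 each), which ranked it 15th of all genes in the table. Below it, in the mean FPKM over all 6 libraries, came Des at 646, Cryab at 585, Actn2 at 303, Myoz2 at 242, Csrp3 at 219.9, Ldb3 at 87.9, Nebl at 83.5 and Xirp1 at 29.2. Among all genes in the table, Des ranked 77th, Ldb3 821st, Nebl 867th and Xirp1 2960th. Only Myoz2 with Csrp3 and Ldb3 with Nebl overlapped as neighbours in this order. Myoz2 exceeded Csrp3 in 6 of 6 libraries, while Ldb3 exceeded Nebl in 5 of 6, the exception being DMSO replicate 1. The order was therefore the same in the 3 treated libraries and in DMSO replicates 2 and 3.

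No Z-disc or stretch-sensing transcript passed the test for a difference after 3Cl-HBA. With edgeR's quasi-likelihood test across 13903 genes and Benjamini-Hochberg adjustment, 0 of the 9 had an adjusted p under 0.05. The background was 0% of all genes called, with 711 at an unadjusted p under 0.05. None of the 9 had an unadjusted p under 0.05 either, against 5.11% of all genes, and in none did the 3 treated libraries lie entirely above or below the DMSO libraries, against 10.5% of all genes. DESeq2 and limma-voom also called 0 of the 9, with 0 at an unadjusted p under 0.05. DESeq2 was run on 18107 genes, without the filter on low counts. It called 0 of them, with 405 (2.24%) at an unadjusted p under 0.05, and for limma-voom this share was 5.06%. In 7 of 14 alternative analyses 1 or 2 of the 9 had an unadjusted p under 0.05, and these were Csrp3, Nebl and, without DMSO replicate 3, also Des. In those 7 analyses 4.25% to 6.84% of all genes had an unadjusted p under 0.05. Log2 fold changes, 3Cl-HBA minus DMSO, ran from -0.18 to 0.037 with a median of -0.0018, where the median of all genes tested was -0.00051. A value above 0 was found in 4 of the 9, against 49.8% of all genes. The 95% interval lay inside 1.25-fold in either direction for 8 of the 9, the exception being Csrp3. The same held for 59.6% of all genes and for 99.4% of the 2141 genes with at least 100 CPM, so such narrow intervals are shared by abundant transcripts.

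**Figure D1:**
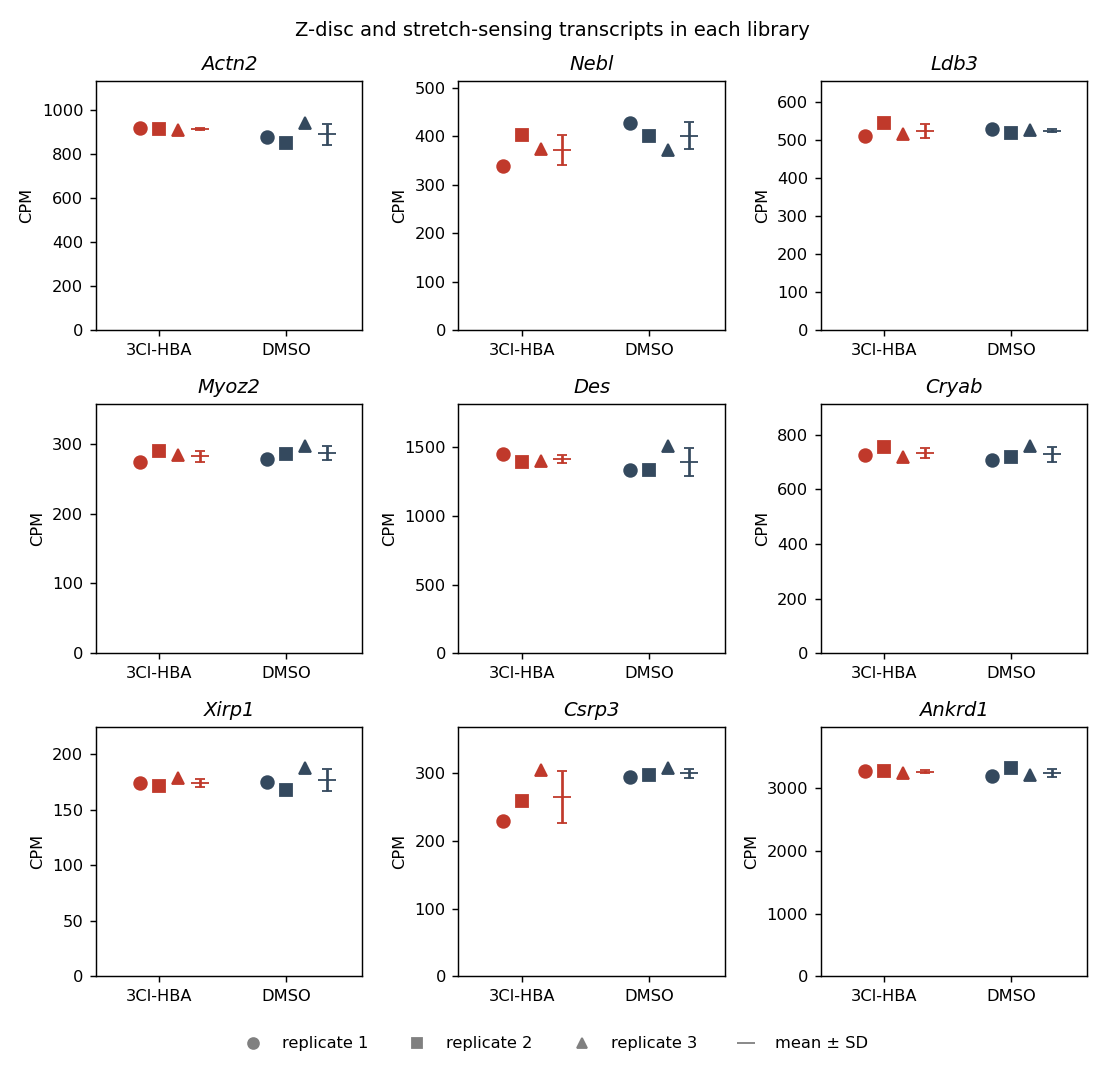
Levels in CPM (vertical axes, from 0) of the 9 transcripts in the 3 libraries of 3Cl-HBA (red) and the 3 of DMSO (dark blue), with each replicate as a symbol and the mean ± SD beside them. The groups overlap in each panel, and Csrp3 and Nebl have their lowest value, 229.8 and 339 CPM, in 3Cl-HBA replicate 1.

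Among the proteins that bind thin filaments, Actn2 and Nebl had overlapping levels in both groups. Actn2, which encodes the muscle alpha-actinin that crosslinks thin filaments in the Z-disc (ENSRNOG00000017833, chromosome 17, 66304501 to 66397653, minus strand, in the coordinates of the deposited table, of an unstated genome build), had 922, 914 and 912 CPM after 3Cl-HBA and 879.9, 853 and 945 CPM in DMSO. The treated libraries lay close together, inside the span of the DMSO libraries. The difference on the log2 scale was 0.037 (SE 0.044, 95% interval -0.051 to 0.125), with an edgeR adjusted p of 0.986. It was 0.077 without DMSO replicate 3 and 0.0047 without DMSO replicate 2. Nebl, which encodes nebulette, a cardiac relative of nebulin that binds the thin filament next to the Z-disc (ENSRNOG00000049452, chromosome 17, 84140489 to 84488601, minus strand), had 339, 402 and 374 CPM after 3Cl-HBA and 428, 402 and 373 CPM in DMSO. The highest DMSO library and the lowest treated library stand apart, and the other 4 libraries lie between them. The log2 fold change of Nebl was -0.11 (SE 0.055, 95% interval -0.22 to 0.0035, unadjusted p 0.057, edgeR adjusted p 0.959), the lowest p among the 9 genes. It moved to -0.17 without 3Cl-HBA replicate 2, to -0.16 without DMSO replicate 3 and to -0.048 without 3Cl-HBA replicate 1.

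The levels of the Z-disc adaptors overlapped between groups. Ldb3, which encodes ZASP, also called cypher, a PDZ and LIM domain protein that binds alpha-actinin (ENSRNOG00000059166, chromosome 16, 10878334 to 10941501, minus strand), had 509.99, 545 and 515 CPM after 3Cl-HBA and 528, 519 and 526 CPM in DMSO. Here the DMSO libraries were the tighter group, and the treated libraries lay on both sides of them. The log2 difference was -0.0018 (SE 0.044, 95% interval -0.091 to 0.088), and the sign turned under 6 of 14 alternative analyses. Myoz2, which encodes calsarcin-1, a tether of the phosphatase calcineurin to alpha-actinin (ENSRNOG00000014815, chromosome 2, 227180886 to 227207635, minus strand), had 274, 289 and 284 CPM after 3Cl-HBA and 278, 285 and 297 CPM in DMSO. The 2 ranges overlapped for most of their width. On the log2 scale the difference was -0.023 (SE 0.048, 95% interval -0.12 to 0.073).

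Desmin and its chaperone likewise had overlapping levels in both groups. Des, whose protein desmin forms the intermediate filaments that link Z-discs sideways and to the cell membrane (ENSRNOG00000019810, chromosome 9, 82556573 to 82564294, plus strand), had 1449, 1397 and 1403 CPM after 3Cl-HBA and 1337, 1335 and 1514 CPM in DMSO. DMSO replicate 3 was the highest of the 6 libraries and DMSO replicate 2 the lowest. The log2 fold change of Des was 0.022 (SE 0.045, 95% interval -0.069 to 0.11), and it was 0.081 without DMSO replicate 3 and -0.0098 without DMSO replicate 2. Cryab, which encodes alpha-B crystallin, a small heat shock protein that protects desmin and other sarcomere proteins (ENSRNOG00000010524, chromosome 8, 55178289 to 55182545, plus strand), had 725, 753 and 719 CPM after 3Cl-HBA and 707, 717 and 759.7 CPM in DMSO. The treated values lay within the DMSO range. The log2 difference was 0.0088 (SE 0.044, 95% interval -0.079 to 0.097), and the sign turned under 4 of 14 alternatives.

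Xirp1 encodes Xin, an actin-binding repeat protein of the intercalated disc and of sites of myofibril remodelling (ENSRNOG00000037085, chromosome 8, 128702133 to 128711221, minus strand). It had 174, 171 and 178 CPM after 3Cl-HBA and 175, 168 and 187 CPM in DMSO. The treated libraries lay inside the DMSO span, and the log2 difference was -0.0199 (SE 0.052, 95% interval -0.12 to 0.084).

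The stretch-sensing genes Csrp3 and Ankrd1 were the most and the least variable of the 9. Csrp3 encodes the muscle LIM protein, a Z-disc and nuclear protein held to take part in sensing stretch (ENSRNOG00000014327, chromosome 1, 104147206 to 104166367, minus strand). It had 3371, 4426 and 4798 reads after 3Cl-HBA and 4118, 4321 and 4053 reads in DMSO, which is 229.8, 259 and 306 CPM after 3Cl-HBA and 295, 298 and 307 CPM in DMSO. The DMSO libraries lay close together, 3Cl-HBA replicates 1 and 2 lay below all of them, and 3Cl-HBA replicate 3 lay among them. The log2 fold change was -0.18 (SE 0.089, 95% interval -0.38 to 0.021, unadjusted p 0.074, edgeR adjusted p 0.975), and a level 0.769 times that of DMSO lay at the edge of the interval. Without 3Cl-HBA replicate 3, Csrp3 had a log2 fold change of -0.297 and an edgeR adjusted p of 0.0469. That fit called 3 of 14059 genes, and it was the 1 case among 14 alternatives in which any of the 9 genes passed. Without 3Cl-HBA replicate 1 the log2 fold change of Csrp3 was -0.088, and over the alternatives its adjusted p ranged from 0.0469 to 0.99999.

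Ankrd1 encodes CARP, a nuclear and sarcomeric ankyrin repeat protein whose transcript is known to rise with stretch and overload (ENSRNOG00000018598, chromosome 1, 254726969 to 254735548, minus strand). It had 3275, 3269.7 and 3234 CPM after 3Cl-HBA and 3191, 3313 and 3204 CPM in DMSO. The groups overlapped, and the whole range over 6 libraries was 3.76% of the mean. The log2 fold change was 0.0104 (SE 0.039, 95% interval -0.069 to 0.089), so a level more than 1.06 times or less than 0.954 times that of DMSO lay outside the interval. With each library's trend on gene length removed the log2 fold change was -0.0056.

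**Figure D2:**
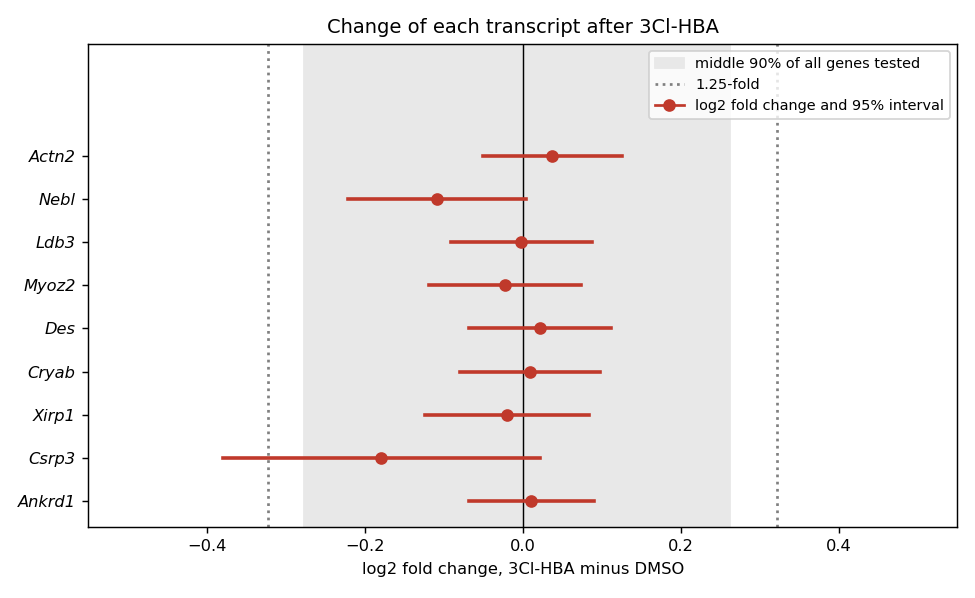
Log2 fold change of each transcript, 3Cl-HBA minus DMSO (points, horizontal axis), with its 95% interval (lines), over the span that holds the middle 90% of all genes tested (grey) and the limits of a 1.25-fold difference (dotted). Each interval includes 0, and that of Csrp3, from -0.38 to 0.021, is the widest.

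The spread between libraries was shared by only some of the 9 genes, and it differed in size. The range over the 6 libraries was 27.4% of the mean for Csrp3 and 23.1% for Nebl, and 3.76% to 12.7% for the other 7 genes. Among the 2141 genes with at least 100 CPM the median range was 10.8%, and 99.0% of them had a smaller range than Csrp3, 96.6% a smaller range than Nebl and 1.35% a smaller range than Ankrd1. 3Cl-HBA replicate 1 gave the lowest value of 4 genes, Csrp3, Nebl, Ldb3 and Myoz2, but lay above the gene's own mean for Actn2, Des and Ankrd1. DMSO replicate 3 gave the highest value of 6 genes, Actn2, Csrp3, Myoz2, Cryab, Des and Xirp1, and lay above the gene's own mean for 7 of the 9. A library therefore did not move all 9 transcripts one way.

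The amount of heart muscle RNA was set beside these values. In bulk RNA, fewer cells of a type and less RNA per cell cannot be told apart. The 12 cardiomyocyte markers took 2.79%, 2.74% and 2.79% of the reads in 3Cl-HBA replicates 1 to 3 and 2.74%, 2.73% and 2.87% in DMSO replicates 1 to 3, so 3Cl-HBA replicate 1 was not low in them, and DMSO replicate 3 was the highest. Csrp3 amounted to 0.828%, 0.940% and 1.09% of the marker reads after 3Cl-HBA and to 1.08%, 1.09% and 1.07% in DMSO. In this share 3Cl-HBA replicates 1 and 2 again lay below the DMSO libraries, and 3Cl-HBA replicate 3 was the highest of the 6. Nebl amounted to 1.22%, 1.46% and 1.34% after 3Cl-HBA and to 1.57%, 1.47% and 1.29% in DMSO. All 9 genes together amounted to 28.6% ± 0.373 of the marker reads after 3Cl-HBA and 28.6% ± 0.372 in DMSO (SD, n = 3 each). With libraries scaled to these markers, the median log2 fold change of the 9 genes was 0.0014 and 0 passed.

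**Figure D3:**
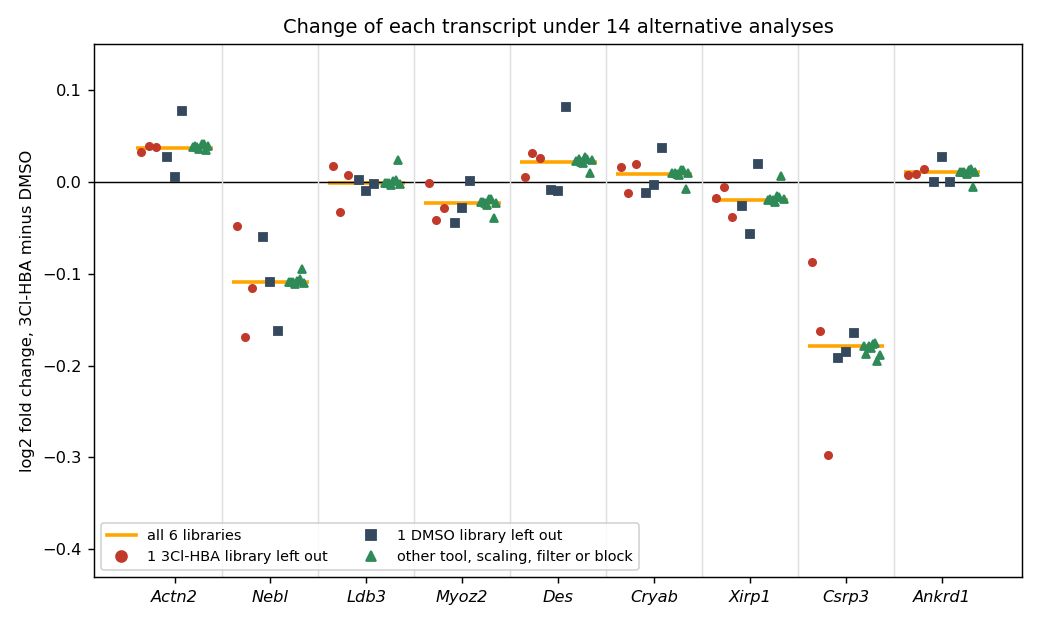
Log2 fold change of each transcript (vertical axis, 3Cl-HBA minus DMSO) with all 6 libraries (orange line), with 1 3Cl-HBA library left out (red), 1 DMSO library left out (dark blue), or with another tool, scaling, filter or block (green). Csrp3 spreads from -0.297 to -0.088 and Nebl from -0.17 to -0.048, below 0 in each case, while Ldb3, Cryab, Des, Xirp1, Ankrd1 and Myoz2 cross 0.

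Related genes of the same families were set beside the 9. Per gene length, Actn2 stood at 307 ± 3.17 FPKM after 3Cl-HBA and 299.6 ± 14.9 FPKM in DMSO (SD, n = 3 each), above the non-muscle alpha-actinins Actn4 and Actn1. Actn4 had 181 ± 4.85 FPKM after 3Cl-HBA and 182 ± 6.26 FPKM in DMSO, and Actn1 had 71.3 ± 0.217 FPKM after 3Cl-HBA and 74.6 ± 1.51 FPKM in DMSO. The skeletal form Actn3 stayed under 1 FPKM, between 0.405 and 0.893. Myoz2 likewise far exceeded its skeletal relatives, since Myoz1 lay between 1.29 and 2.62 FPKM and Myoz3 between 0.134 and 0.651 FPKM. Myoz1, with 24 to 51 reads per library, had 2.24 ± 0.422 FPKM after 3Cl-HBA and 1.51 ± 0.242 FPKM in DMSO, without overlap. Its log2 fold change was 0.58 (SE 0.28, unadjusted edgeR p 0.045, edgeR adjusted p 0.959). Nebulin itself, Neb, lay between 0.0827 and 0.154 FPKM, against 73.7 to 92.9 FPKM for Nebl.

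Ankrd1 was the predominant ankyrin repeat gene of its family, as Ankrd2 lay between 0.0497 and 0.681 FPKM and Ankrd23 between 0.748 and 1.41 FPKM. Other families were shared more evenly. Csrp1, a LIM protein gene of smooth muscle and other cells, exceeded Csrp3, with 265 ± 2.28 FPKM after 3Cl-HBA and 259 ± 1.71 FPKM in DMSO. The PDZ and LIM gene Pdlim5 exceeded Ldb3, with 205 ± 9.55 FPKM after 3Cl-HBA and 209.5 ± 6.43 FPKM in DMSO, while over all libraries Ldb3 averaged 1.01 times the FPKM of Pdlim1 and 0.984 times that of Pdlim3. Vimentin, Vim, an intermediate filament gene of fibroblasts and other cells, had 716 ± 32.6 FPKM after 3Cl-HBA and 710.4 ± 16.2 FPKM in DMSO, and over all libraries Des averaged 0.905 times the FPKM of Vim. Of the small heat shock genes set beside Cryab, Hspb7 was next with 324 ± 8.43 FPKM after 3Cl-HBA and 319.6 ± 16.6 FPKM in DMSO. None of the 19 related genes that could be tested passed. Among the 19, the groups did not overlap in CPM for Actn1 and Actn3, lower after 3Cl-HBA, and for Myoz1 and Hspb6, higher. Over all genes tested, 10.5% did not overlap.

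**Figure D4:**
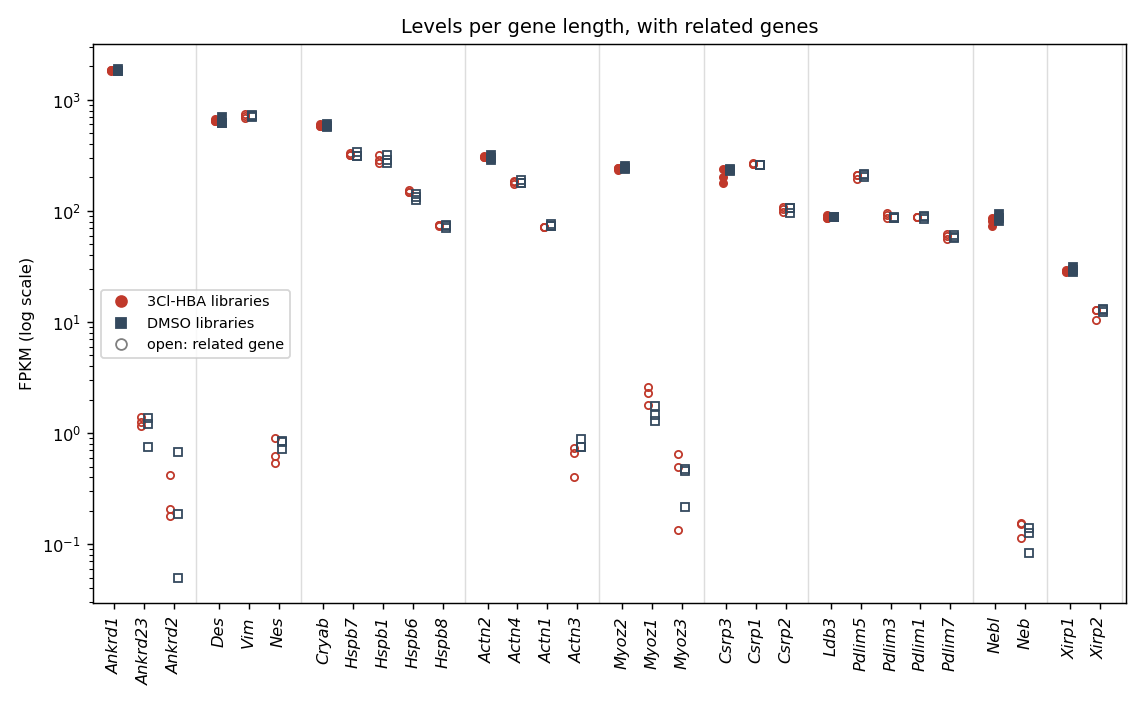
FPKM on a log axis for the 9 transcripts (filled symbols) and their related genes (open symbols), with 3Cl-HBA libraries as red circles and DMSO libraries as dark blue squares. Ankrd1, Myoz2 and Nebl lie far above most of their relatives, while Csrp1, Pdlim5 and Vim lie above Csrp3, Ldb3 and Des.

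Other genes of the Z-disc and of the filaments tied to it gave the same absence of calls. Of 26 further scaffold and linker genes matched, 23 were tested, 0 passed in either direction and 13 had a value above 0, with a median log2 fold change of 0.0099. An unadjusted edgeR p under 0.05 was found for 1 of the 23 (4.35%), against 5.11% of all genes. The groups did not overlap for 6 (26.1%), against 10.5% of all genes. Sorbs2, an adaptor of the sarcomere and the intercalated disc and the most abundant in CPM, had 1013 ± 63.1 CPM after 3Cl-HBA and 988 ± 30.4 CPM in DMSO (SD, n = 3 each). Of the 18 tested LIM, ankyrin and adhesion genes of stretch response, 0 passed and 11 were above 0 (median 0.0084). None of the 18 had an unadjusted p under 0.05, and 1 (5.56%) did not overlap between groups. Vcl, the gene of vinculin, which anchors actin at adhesions, had 563 ± 14.6 CPM after 3Cl-HBA and 570.3 ± 22.0 CPM in DMSO. Fhl1, a LIM gene of stretch signalling, had 478 ± 15.1 CPM after 3Cl-HBA and 474 ± 12.2 CPM in DMSO.

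Of the 13 small heat shock and co-chaperone genes, 0 passed and 7 were above 0 (median 0.0039). An unadjusted edgeR p under 0.05 was found for 3 of the 13 (23.1%, with 2 higher and 1 lower after 3Cl-HBA), against 5.11% of all genes. The groups did not overlap for 1 (7.69%), against 10.5% of all genes. Hspa8, a constitutive Hsp70, had 1314 ± 16.6 CPM after 3Cl-HBA and 1311 ± 47.2 CPM in DMSO. Hspb6, named after its values were seen, had 197 ± 6.29 CPM after 3Cl-HBA and 175 ± 10.7 CPM in DMSO, with groups that did not overlap (log2 fold change 0.17, SE 0.052, unadjusted p 0.0018, edgeR adjusted p 0.914). It encodes a partner of alpha-B crystallin, and it did not pass.

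Of the 12 tested intermediate filament and linker genes, 0 passed and 2 were above 0, with a median log2 fold change of -0.11. With single libraries left out the median ran from -0.133 (without 3Cl-HBA replicate 3) to -0.067 (without 3Cl-HBA replicate 1). An unadjusted edgeR p under 0.05 was found for 1 (8.33%, against 5.11% of all genes), and 2 (16.7%, against 10.5%) did not overlap between groups. The summed level of this list was 3044 to 3095 CPM after 3Cl-HBA and 3140.4 to 3180.0 CPM in DMSO, without overlap. Plec, which encodes plectin, a giant linker of desmin to the Z-disc, had 326 ± 8.62 CPM after 3Cl-HBA and 364 ± 16.6 CPM in DMSO, with groups that did not overlap (log2 fold change -0.16, SE 0.047, unadjusted p 0.0017, edgeR adjusted p 0.914). Of the 12 M-band and ubiquitin ligase genes, 0 passed and 3 were above 0 (median -0.035). Here 1 (8.33%) had an unadjusted edgeR p under 0.05, and 3 (25%) did not overlap between groups. The M-band list summed to 3197 to 3307 CPM after 3Cl-HBA and 3341 to 3425 CPM in DMSO, without overlap. No test was made of either sum. Plec is long, at 17402 bases in the deposited table. With each library's trend on gene length removed, the value of Plec was -0.064 and the median of the intermediate filament list -0.075. The 9 genes of the main group are 1173 to 6017 bases long, and there Nebl moved to -0.095 and Csrp3 to -0.195.

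In the annotation of the deposited table, 80 genes besides the 7 carry the Z disc term. Of the 73 that were tested, 0 passed and 32 were above 0, with a median log2 fold change of -0.0098. An unadjusted p under 0.05 was found for 12 of the 73 (16.4%, with 4 higher and 8 lower after 3Cl-HBA), against 5.11% of all genes, and 14 (19.2%) did not overlap between groups, against 10.5% of all genes. Their summed level was 23140 to 23732 CPM after 3Cl-HBA and 23398 to 24509.7 CPM in DMSO. The summed levels overlapped.

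Summed levels of markers of heart muscle and of other cells overlapped between the groups. Summed over the 12 cardiomyocyte markers, levels were 27524 to 27915 CPM after 3Cl-HBA and 27281 to 28797 CPM in DMSO. Taken singly, 2 of the 12, Ryr2 and Myl2 (16.7%, both lower after 3Cl-HBA), had an unadjusted edgeR p under 0.05, against 5.11% of all genes. Ryr2, named after its values were seen, had 861 ± 66.4 CPM after 3Cl-HBA and 969 ± 35.3 CPM in DMSO (SD, n = 3 each). Its log2 fold change was -0.17 (SE 0.047, unadjusted edgeR p 0.00092, edgeR adjusted p 0.914). The groups did not overlap for 1 of the 12, Ryr2 (8.33%), against 10.5% of all genes. Each other marker list had 0 genes at an unadjusted p under 0.05. The 9 fibroblast markers, led by Col1a1, summed to 21162 to 22089.9 CPM after 3Cl-HBA and 21292 to 22651 CPM in DMSO. The 9 smooth muscle and pericyte markers summed to 2682 to 2729.9 CPM after 3Cl-HBA and 2622 to 2859.9 CPM in DMSO, a class of interest because smooth muscle also expresses Des. For the 9 endothelial markers, of which Cldn5 had no read in any library, the sums were 584 to 613 CPM after 3Cl-HBA and 571 to 655 CPM in DMSO. For the 10 macrophage and leukocyte markers they were 510.1 to 528 CPM after 3Cl-HBA and 489.6 to 528 CPM in DMSO. No marker passed, and the groups overlapped in each sum. The part of these cells in the levels of Des, Cryab or Csrp1 was not tested.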

How the data were processed

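RNA-seq counts of 3 3Cl-HBA and 3 DMSO libraries were analysed. RNA was handled with a KAPA RiboErase kit, and DESeq2 is named as the analysis tool, per the labels' protocols. Aligner, counting program, strand setting, genome build and annotation release are in none of the sources used here. Sense and antisense reads therefore cannot be told apart, although no other gene of the table overlaps any of the 9 genes. The deposited table holds whole-number read counts, not normalised, and FPKM, per the file headers. The authors' FPKM equal count over gene length and library total within a relative gap of 8.2e-08 and were used only for levels between genes, without a test. Gene length in bases is a deposited value of the authors.

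Columns were assigned through the treatment protocol and the replicate number. Tests on the counts used edgeR 4.0.16 under R 4.3.3 (TMM, filterByExpr with a minimum count of 10, robust quasi-likelihood fit, no block), with Benjamini-Hochberg adjustment over all 13903 genes that passed the filter; all 9 genes passed. SEs are the absolute log2 fold change over the square root of F. With 3 against 3, exact permutation gives a two-sided p of 0.1 at best, so it was not used. Alternatives were DESeq2 1.42.0, limma-voom (limma 3.58.1), other scalings (RLE, library totals, cardiomyocyte markers), no filter, removal of each library's lowess trend of log2 CPM (prior count 2) on log10 gene length, a replicate block, and each library left out. The procedure was tested on simulated counts.

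The genes and the 10 lists were chosen with earlier results of these data known. Of 135 listed symbols, 131 were matched. The 3 most abundant tested genes of a list were open to being named, with any gene that passed. The related genes, the Z disc annotation term, Hspb6, Ryr2, Myl2 and the limit of 100 CPM were chosen after values were seen. One further result is not reported here.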

Additional observations from a re-analysis of the deposited data

How the results depend on the processing

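The count of genes called among all tested, 0 with all libraries, became 2 when low counts were not filtered and ranged from 0 to 8 with single libraries left out. The count among the 9 Z-disc and stretch-sensing genes, 0 with all libraries, ranged from 0 to 1 with single libraries left out. The 1 was Csrp3 without 3Cl-HBA replicate 3, where 3 of 14059 genes were called. The other 8 alternatives gave 0. At an unadjusted p under 0.05, where all libraries gave 0 of the 9, Csrp3 passed scaled to cardiomyocyte markers, with the replicate block and without 3Cl-HBA replicate 3. Nebl passed with the length trend removed and without 3Cl-HBA replicate 2, both passed with no filter, and Nebl and Des passed without DMSO replicate 3. The share of all genes that passed in these analyses ran from 4.25% (scaled to cardiomyocyte markers) to 6.84% (without DMSO replicate 3). The number of the 9 above 0, which was 4, ranged from 2 to 5 with single libraries left out. The median of the 9 genes stayed between -0.012 and 0.0077 over all 14 alternatives. No pathway or marker gene passed under any of them.

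Signs turned only for values near 0, 18 times in 126. For Ldb3 the log2 fold change was 0.0014 scaled to cardiomyocyte markers, 0.0019 with no filter, 0.024 with the length trend removed, and -0.033 to 0.017 with single libraries left out. For Cryab it was -0.0083 with the length trend removed and -0.012 to 0.037 with single libraries left out. Xirp1 gave 0.0066 and Ankrd1 -0.0056 with the length trend removed. With single libraries left out, Des ran from -0.0098 to 0.081, Myoz2 from -0.045 to 0.00046, Xirp1 from -0.057 to 0.0197 and Ankrd1 from -0.00014 to 0.027. Csrp3, Nebl and Actn2 kept their signs under all 14. The cause of these moves was not tested.

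Replicate numbers are shared by the groups, but same-numbered libraries did not deviate together (correlations over genes of -0.074, -0.039 and -0.040 for numbers 1, 2 and 3). With the replicate block, 0 genes passed in all, 0 of the 9 passed and their median was -0.0024.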
